A study of Mus musculus with 16 samples.

Results

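Heat shock proteins and DnaJ proteins are molecular chaperones, which bind other proteins while these fold, assemble, cross membranes or are broken down. Their genes were taken from the expression table by symbol (the Hspa, Hspb, Hspd, Hspe, Hsph, Hsp90, Dnaja, Dnajb and Dnajc series) when they reached 1 FPKM in at least 4 of 16 libraries. FPKM relates the fragments of a gene to its length and to the size of the library. Of 74 genes with such a symbol among the 39171 features of the table, 61 met the level rule, as did 16340 features in all. They are 3 Hsp90 genes of 3, 12 Hsp70 and Hsp110 genes of 14 and 4 small heat shock genes of 8. The others are both chaperonin genes (2 of 2), 39 DnaJ genes of 45, and Hspbp1, which encodes an Hsp70 binding factor. Of the 2 genes outside these classes, Hspbp1 and Hspbap1, only Hspbp1 passed. The genes were selected on their symbol and their FPKM level, so that they were expressed is not a finding.

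The 13 genes under the level rule were Hspa1b, Hspa1l, Hspb2, Hspb3, Hspb7, Hspb9, Hspbap1, Dnajb3, Dnajb7, Dnajb8, Dnajc5b, Dnajc5g and Dnajc22. Just inside it lay Dnajb2 and Hspa1a, each with 1 FPKM or more in 4 libraries and with means of 0.863 and 0.649 FPKM over the 16 libraries. Just outside lay Hspa1l, Hspbap1, Hspa1b and Dnajb3, with 2 libraries each and means of 0.544, 0.789, 0.550 and 0.475 FPKM. Of the 61 genes, 46 reached 1 FPKM in every library. Hspa1a, Hspb1 and Dnajb13 reached it in 4, 7 and 8 reporter-negative libraries and in 0 positive ones. Dnajc6 and Hspa12a reached it in 8 negative libraries and 1 positive one, and Dnajc14 in 4 and 3. These 6 genes met the rule only through the negative libraries, where they were higher, so the rule itself favoured a fall. Their gate differences are given without a p, and the main counts are also given without them.

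The libraries came from flow-sorted astrocytes of 4 mice, taken from thalamus and spinal cord. Every mouse was of the C57BL/6 strain, at postnatal day 15, and was heterozygous for the Il33 reporter allele IL-33-mCherry (het) and positive for Aldh1l1-GFP, a reporter that follows a gene used to mark astrocytes. Each mouse gave an IL-33 reporter-positive and a reporter-negative library from each region, so that each of the 4 groups (thalamus negative, thalamus positive, spinal cord negative, spinal cord positive) held 4 libraries from separate mice. The controls are thus the negative cells of the same reporter animals, no group lacked the reporters, and the sources used here do not say what part GFP played in the gating. All differences below are positive minus negative or spinal cord minus thalamus, on the log2(FPKM + 1) scale, from a limma fit over the 16340 features with Benjamini-Hochberg adjustment. A gene was called, and is said to have risen or fallen, at an adjusted p under 0.05.

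Chaperones work as a relay. DnaJ proteins bring unfolded proteins to Hsp70 and start its ATP cycle, nucleotide exchange factors such as the Hsp110 proteins release them again, and Hsp90 finishes the maturation of kinases, receptors and other clients. Small heat shock proteins hold unfolded proteins without using ATP, and the chaperonin Hspd1 folds proteins inside mitochondria under the lid formed by Hspe1. The cytosolic genes are induced together by heat shock factors that bind heat shock elements, whereas the chaperones of the endoplasmic reticulum (ER) are induced by the unfolded protein response through ER stress elements.

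Libraries held 984986 to 2344480 FPKM in sum, with 13260 to 14731 features at 1 FPKM or more. Sequencing depth is unknown for these values. Both negative libraries of mouse 1 stood apart, with mitochondrial transcripts at 73.9% (thalamus) and 71.8% (spinal cord) of the summed FPKM against 43.7% to 62.6% in the other 14. Il33 itself lay at 13.3 to 26.9 FPKM in negative and 23.8 to 31.98 FPKM in positive thalamus libraries, and at 19.98 to 36.5 FPKM and 24.6 to 31.2 FPKM in those of the spinal cord, so the ranges of the gates overlapped in both regions. The 12 pan-astrocyte markers summed to 7227 to 10440 FPKM in negative and 6980 to 8414 FPKM in positive thalamus libraries. In the spinal cord their sums were 11034 to 13109 FPKM and 15301 to 16928 FPKM. Of the 12, 3 rose and 3 fell in the thalamus, and 5 rose and 1 fell in the spinal cord. None of them was at 0 in all libraries of a group. Markers of other cell types were also present. The 12 oligodendrocyte markers summed to 414 to 955 FPKM in negative and 78.7 to 115 FPKM in positive thalamus libraries, and to 3260 to 3436 FPKM and 160 to 172 FPKM in those of the spinal cord. The 12 for ependymal cells summed to 356 to 639 FPKM and 7.34 to 9.44 FPKM in the thalamus, and to 120 to 169 FPKM and 4.02 to 6.98 FPKM in the spinal cord. Of the markers tested for oligodendrocyte precursors 5 of 8 fell in both regions, for endothelial cells 2 and then 7 of 10 (thalamus, then spinal cord), for mural cells 4 and 3 of 7, and for microglia 1 and 2 of 8, and 0 of these rose.

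Known regulatory sequences of these genes were searched for in RefSeq windows of the GRCm38.p6 build, from 250 bases before to 50 bases after each start site. Of the 61 genes, 50 had a window. The 11 without one were not searched. They were Hsp90aa1, Hsp90ab1, Hspa8, Hspa9, Hspa13, Dnajc2, Dnajc5, Dnajc11, Dnajc12, Dnajc18 and Dnajc30. The heat shock element was searched on both strands as GAA, TTC and GAA in this order, with 2 bases of any kind between them. It was found in 4 of the 50 genes (8%), namely Dnajb6, Hspd1, Hspe1 and Hsph1 (after its start site), and in 179 of the 27025 genes with a window (0.662%). The ER stress element was searched on both strands as CCAAT and CCACG with 9 bases of any kind between them. It was found in Hspa5, Hsp90b1 and Dnajc3, which is 3 of the 50 genes (6%), and in 37 of the 27025 (0.137%). A match is a description of these letters and not a binding site. The stretches shown are those before the start sites of Hspe1, Hspa5, Hsp90b1 and Dnajc3, whose levels are described below. Capitals mark the fixed letters of the element, and each stretch is written from 5′ to 3′ on the strand of its gene.
Hspe1, chr1:55088053-55088082, plus strand: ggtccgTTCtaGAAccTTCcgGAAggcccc
Hspa5, chr2:34772020-34772049, plus strand: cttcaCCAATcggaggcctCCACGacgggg
Hsp90b1, chr10:86705533-86705656, minus strand: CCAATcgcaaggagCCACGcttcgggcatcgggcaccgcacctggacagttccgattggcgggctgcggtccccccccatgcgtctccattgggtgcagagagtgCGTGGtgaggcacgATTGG
Dnajc3, chr14:118937797-118937876, plus strand: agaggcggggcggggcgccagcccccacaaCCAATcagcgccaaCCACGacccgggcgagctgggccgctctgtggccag
Hspe1 held 2 overlapping matches, 1 on each strand, and the same bases lie before the start of Hspd1 on the opposite strand, since these genes are divergent neighbours. Hsp90b1 held 2 matches in opposite orientation, and Hspa5 and Dnajc3 held 1 each.

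In the thalamus the question was how the chaperone genes of reporter-positive astrocytes compare with those of reporter-negative ones. Hsp90aa1, the heat-inducible cytosolic Hsp90, was 8.04 times as high in negative as in positive libraries. Also lower in the positive cells were Hsp90ab1, the Hsp110 genes Hsph1 and Hspa4, the small heat shock gene Hspb6 and the mitochondrial chaperonin Hspd1. ER-linked genes went both ways, with Dnajb9 and Hspa13 higher and Hsp90b1 lower. Of the 61 genes, 20 fell in the positive libraries and 4 rose, which is 39.3% called, against 25.2% of all features tested (11.6% higher). The rises made up 6.56% of the genes, under the share of all features. The falls made up 32.8% of the genes against 13.6% of all features, and the median difference was -0.25 against 0.06. Among protein-coding genes alone, 16.9% fell and the median was -0.08. Without the 6 genes named above, 15 of 55 fell (27.3%). Leaving out mouse 4 lowered the count of calls to 14, and without the negative thalamus library of mouse 1, which stood apart, it was 27. Over all features 2279 and 4855 were called in these fits, against 4119 in the main fit. The 4 rises became 1 without mouse 1 or its positive library, 2 without mouse 2, and 0 without mouse 3 or 4.

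For the spinal cord 15 genes fell and 1 rose, which is 26.2% called, against 19.6% of all features tested (9.04% higher). The 1 rise was 1.64% of the genes. The falls made up 24.6% of the genes against 10.5% of all features (13% of protein-coding genes), and the median difference was -0.12 against 0.09. Without the same 6 genes, 12 of 55 fell (21.8%). Hspb6, Hsp90aa1, Hspa12a, Hspa4 and Hsph1 again were among the genes that fell, and Hspa5, the main Hsp70 of the ER, was the gene that rose. Without mouse 3 the count was 9, and without the negative spinal cord library of mouse 1 it was 14. Over all features 1861 and 2931 were called in these fits, against 3196 in the main fit. In both regions 14 genes fell, which is 70% of those that fell in the thalamus and 93.3% of those that fell in the spinal cord, and 0 rose in both. Among the 14 were Dnajb13, Dnajc6 and Hspa12a, which met the level rule through the negative libraries. The share of all features that fell in both regions was not counted, so the overlap has no background beside it. Markers of oligodendrocytes and ependymal cells moved with these falls in the same libraries (11 and 12 of 12 lower in the thalamus, 12 and 12 of 12 in the spinal cord), and their part in the falls was not tested. In pooled cells such as these, fewer cells of a type and less RNA per cell cannot be told apart.

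**Figure D1:**
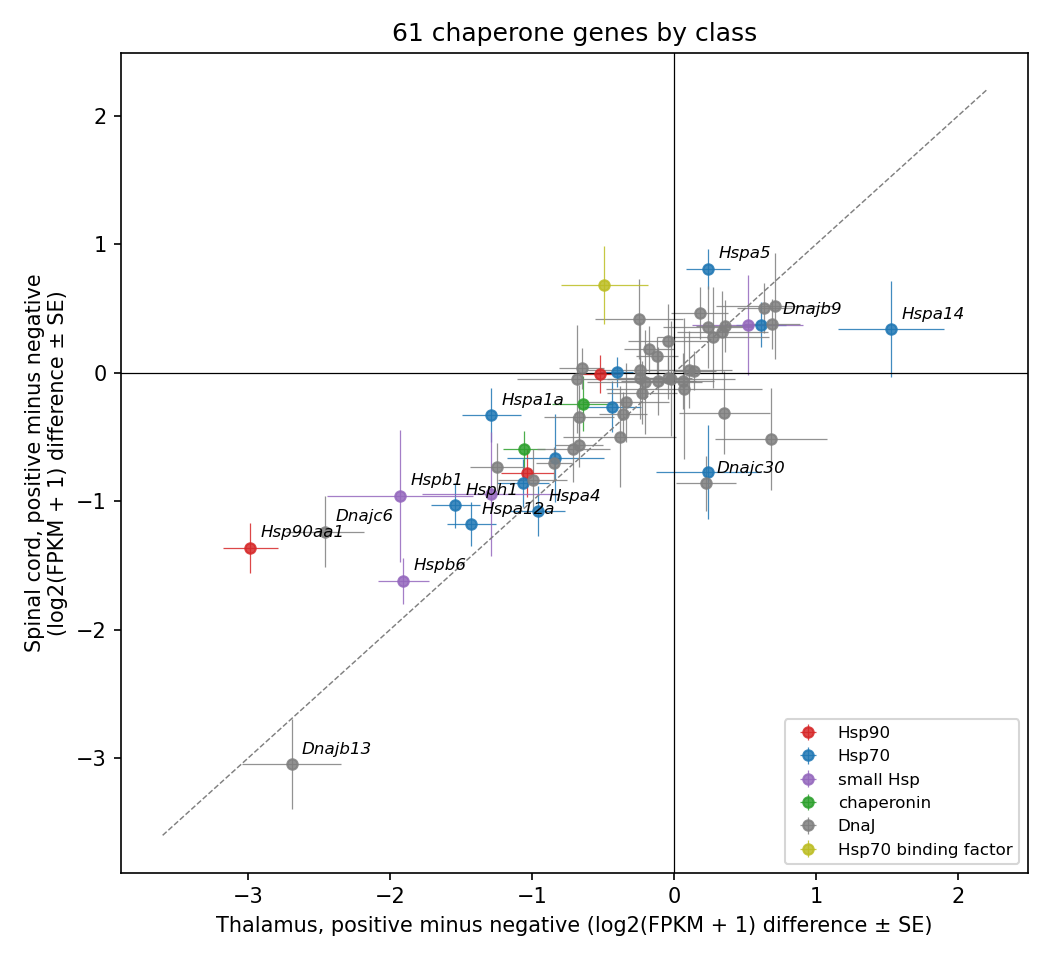
Difference between reporter-positive and reporter-negative libraries for the 61 chaperone genes, thalamus on the x axis and spinal cord on the y axis, both in log2(FPKM + 1) with bars of ± SE and coloured by class, with the line of equal difference dashed. Most called genes lie in the lower left, Hsp90aa1 lies farthest above the dashed line among the genes that fell in both regions, and Hspa5 and Hspa14 are high on 1 axis each.

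The Hsp90 class has a heat-inducible and a constitutive cytosolic member and an ER member. Hsp90aa1 (chromosome 12, 110690605 to 110702728, minus strand, GENCODE vM21 annotation of GRCm38) was at 267, 240, 300 and 331 FPKM in the negative thalamus libraries of mice 1 to 4 and at 37.2, 29.5, 45.3 and 29.4 FPKM in the positive ones. Its spinal cord levels were 119, 196, 142 and 170 FPKM in negative and 70.1, 65.9, 46.9 and 57.1 FPKM in positive libraries. The gates did not overlap in either region, and the order of the groups was thalamus negative, spinal cord negative, spinal cord positive, thalamus positive, with no overlap between neighbours. Hsp90aa1 fell by 2.98 ± 0.19 (SE, adjusted p = 1.31e-07) in the thalamus and by 1.36 ± 0.19 (adjusted p = 0.000179) in the spinal cord. The difference between these falls was itself called, at 1.62 ± 0.28 (adjusted p = 0.00507), and Hsp90aa1 was the only chaperone gene for which it was, which is 1.64% of the 61 against 2.56% of all features (1.13% higher and 1.43% lower). Without mouse 4 that difference was 1.53 with an adjusted p of 0.0798, and in the other 27 of 28 alternatives it stayed under 0.05. In the same comparison 6 of 12 ependymal markers were called higher (median of the 12, 1.69), while 7 of 12 oligodendrocyte and 4 of 8 precursor markers were called lower. Their part in the difference of Hsp90aa1 was not tested. Of the 50-base words of Hsp90aa1, 58.5% occur in other transcripts, most of them in the copy Gm12346, whose own row held 0.0197 to 0.362 FPKM.

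Hsp90ab1, the constitutive cytosolic Hsp90, was at 116, 233, 220 and 226 FPKM in negative thalamus libraries and at 90.3, 99.3, 92.8 and 90.6 FPKM in positive ones. Spinal cord libraries held it at 241, 201, 189 and 231 FPKM and 132, 123, 124 and 120 FPKM. The gates did not overlap, although the negative thalamus library of mouse 1 lay close to the positive ones. Hsp90ab1 fell by 1.03 ± 0.19 (adjusted p = 0.00124) in the thalamus and by 0.78 ± 0.19 (adjusted p = 0.00951) in the spinal cord, where the adjusted p was 0.0564 without mouse 3 and 0.0843 without mouse 4.

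Hsp90b1, the Hsp90 of the ER, had the highest level of the 61 genes, with a mean of 805 FPKM. It was at 800, 838, 795 and 880 FPKM in negative and 562, 634, 545 and 572 FPKM in positive thalamus libraries. Its levels in spinal cord were 1115, 1009, 779 and 755 FPKM and 785, 972, 936 and 910 FPKM, and there the gates overlapped. Hsp90b1 fell by 0.52 ± 0.15 (adjusted p = 0.0198) in the thalamus, where the adjusted p was 0.0571 without the positive library of mouse 3, 0.0591, 0.116 and 0.116 without mouse 2, 3 or 4, and 0.0538 with scaling over protein-coding genes. In the spinal cord the difference was -0.01 ± 0.15 (adjusted p = 0.985). The exons of Hsp90b1 overlap those of 1810014B01Rik on the opposite strand over 10.3% of their bases, and the sources used here do not say whether the counting used strand.

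**Figure D2:**
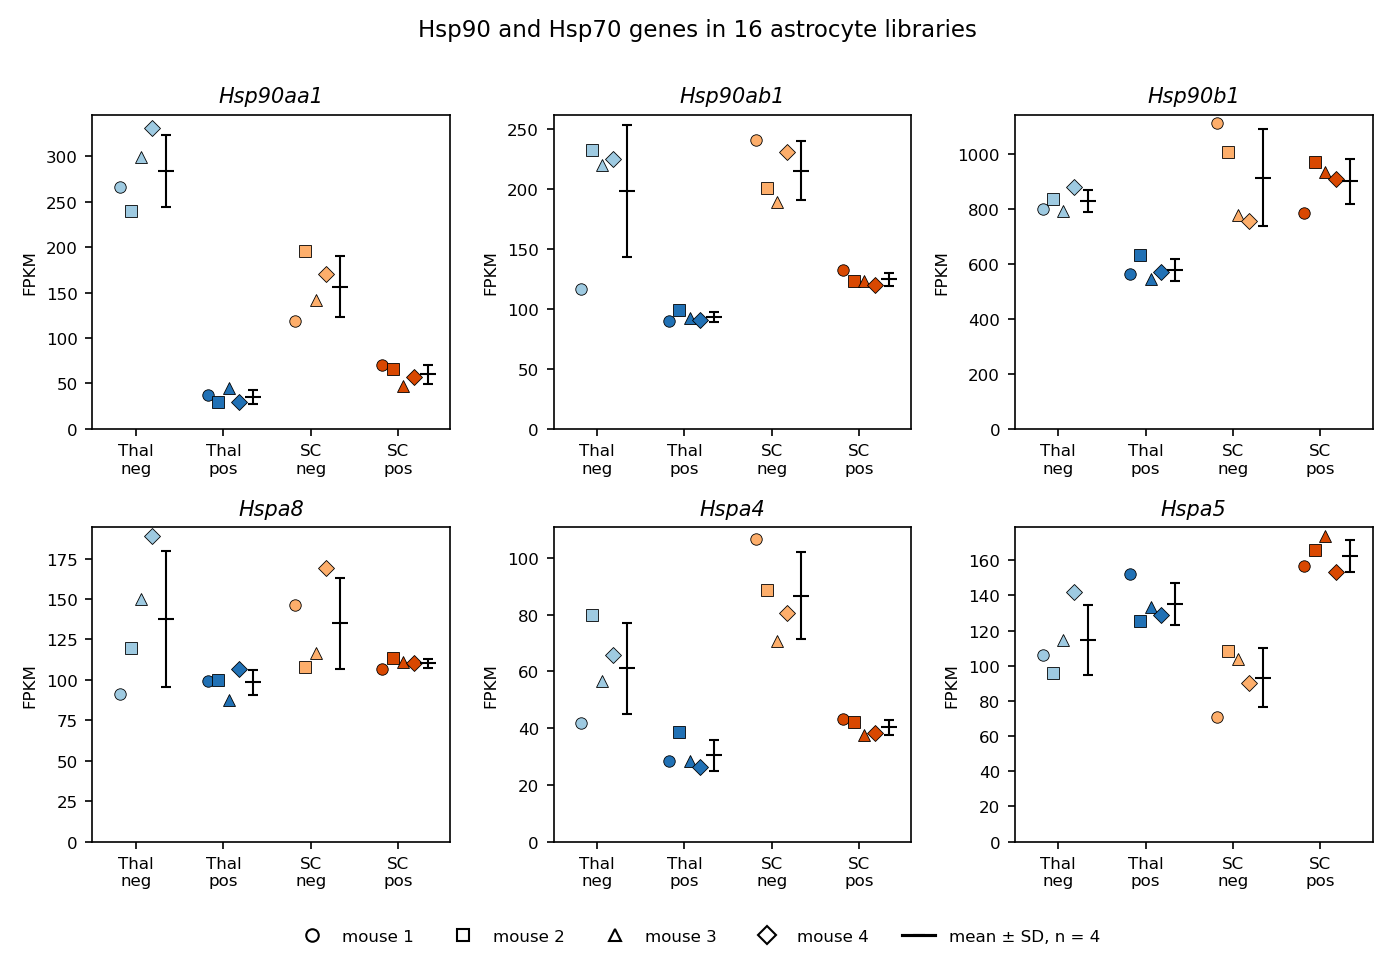
FPKM of Hsp90aa1, Hsp90ab1, Hsp90b1, Hspa8, Hspa4 and Hspa5 in each library, with the 4 groups on the x axis (Thal, thalamus, SC, spinal cord, neg and pos, reporter-negative and reporter-positive), mice as symbols and the group mean ± SD (n = 4) beside the points. Hsp90aa1 separates all 4 groups, Hspa4 separates the gates in both regions, and Hspa5 separates them in the spinal cord, in the opposite direction.

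Among the Hsp70 and Hsp110 genes, 6 fell and 2 rose in the thalamus, and 4 fell and 1 rose in the spinal cord, of 12. The falls were 50% and 33.3% of these genes, against 13.6% and 10.5% of all features, and without Hspa1a and Hspa12a they were 4 and 3 of 10. Hspa8, the constitutive cytosolic Hsp70, was at 91.4, 119, 150 and 189 FPKM in negative and 99.1, 99.9, 87.8 and 107 FPKM in positive thalamus libraries. Among spinal cord libraries it was at 146, 108, 116 and 169 FPKM and 107, 113, 111 and 110 FPKM. The gates overlapped in both regions, and Hspa8 was not called, at -0.43 ± 0.20 (adjusted p = 0.125) and -0.26 ± 0.20 (adjusted p = 0.385). Of the 50-base words of its transcript, 74.8% also occur in transcripts of other genes, most of them in the copy Gm15459, so its level is uncertain.

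Hspa5, also known as BiP, was at 106, 95.9, 115 and 142 FPKM in negative and 152, 126, 133 and 129 FPKM in positive thalamus libraries. Its spinal cord levels were 70.8, 108, 104 and 90.1 FPKM in negative and 157, 166, 174 and 153 FPKM in positive libraries. The gates overlapped in the thalamus, where the difference was 0.24 ± 0.16 (adjusted p = 0.269), and were apart in the spinal cord, where Hspa5 rose by 0.81 ± 0.16 (adjusted p = 0.00191) and in 4 of 4 mice. That rise was called in each of the 29 alternatives. The difference between the regions was not called, at 0.57 ± 0.22 (adjusted p = 0.231).

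The Hsp110 proteins Hspa4, Hsph1 and Hspa4l release clients from Hsp70 by exchanging its nucleotide. Hspa4 was at 41.9, 79.96, 56.7 and 65.7 FPKM in negative and 28.4, 38.5, 28.4 and 26.4 FPKM in positive thalamus libraries, and at 107, 88.8, 70.8 and 80.6 FPKM and 43.1, 42.01, 37.5 and 38.3 FPKM in the spinal cord. The gates did not overlap in either region, and Hspa4 fell by 0.96 ± 0.19 (adjusted p = 0.00232) and by 1.08 ± 0.19 (adjusted p = 0.00109). Hsph1, which is strongly heat-inducible, was at 41.4, 63.4, 40.3 and 36.5 FPKM in negative and 14.0, 17.7, 14.3 and 12.8 FPKM in positive thalamus libraries. Spinal cord libraries held it at 42.3, 33.1, 35.8 and 32.99 FPKM and 15.8, 18.4, 19.4 and 14.8 FPKM. Again the gates were apart, and Hsph1 fell by 1.54 ± 0.18 (adjusted p = 2.43e-05) and by 1.03 ± 0.18 (adjusted p = 0.000755), in each of the 29 alternatives of either region. Hspa4l had means of 27.3 FPKM in negative and 13.2 FPKM in positive thalamus libraries and of 14.5 and 8.62 FPKM in the spinal cord, and was not called, at -0.83 ± 0.34 (adjusted p = 0.088) and -0.66 ± 0.34 (adjusted p = 0.197).

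Hspa2, an Hsp70 best known from male germ cells, was at 29.1, 52.8, 44.3 and 35.5 FPKM in negative and 19.1, 17.8, 18.0 and 18.5 FPKM in positive thalamus libraries. Its levels in spinal cord were 24.4, 18.3, 28.0 and 28.1 FPKM and 12.9, 15.1, 13.2 and 11.1 FPKM. The gates were apart in both regions, and Hspa2 fell by 1.06 ± 0.19 (adjusted p = 0.000861) and by 0.86 ± 0.19 (adjusted p = 0.00457). Its adjusted p in the spinal cord was 0.0616 without mouse 3 and 0.0738 without mouse 4.

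Hspa9, the Hsp70 of mitochondria, was at 16.8, 21.1, 20.6 and 18.6 FPKM in negative and 13.4, 14.9, 14.6 and 14.3 FPKM in positive thalamus libraries. Among spinal cord libraries it was at 25.7, 24.1, 26.5 and 22.3 FPKM and 24.9, 26.2, 24.9 and 22.7 FPKM. Its positive thalamus libraries were below all 12 others, while the spinal cord gates overlapped. Hspa9 fell by 0.40 ± 0.12 (adjusted p = 0.0216) in the thalamus and differed by 0.00 ± 0.12 (adjusted p = 0.989) in the spinal cord. The thalamus fall was not called in 7 of 29 alternatives, with adjusted p = 0.0624 and 0.0514 without the positive library of mouse 1 or 4, 0.0978, 0.142 and 0.0992 without mouse 2, 3 or 4, 0.0602 with scaling over protein-coding genes and 0.0855 with only the groups compared.

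The weakly expressed Hsp70 genes moved in both directions. Hspa12a, an atypical and distant relative of Hsp70, was at 2.78, 3.54, 3.37 and 2.94 FPKM in negative and 0.389, 0.475, 0.794 and 0.541 FPKM in positive thalamus libraries. Its spinal cord levels were 3.73, 3.56, 2.70 and 2.48 FPKM and 0.512, 1.22, 0.844 and 0.714 FPKM. The gates did not overlap, and the differences were -1.43 ± 0.17 and -1.18 ± 0.17, in a gene that met the level rule through its negative libraries. Differences of such low genes are understated on the log2(FPKM + 1) scale, and with a pseudocount of 0.1 they were -2.36 and -1.84. Its relative Hspa12b had group means of 1.11 to 3.47 FPKM and was not called.

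Hspa13, a microsomal Hsp70, was at 5.14, 7.94, 7.02 and 7.88 FPKM in negative and 13.03, 9.09, 12.5 and 10.2 FPKM in positive thalamus libraries. Spinal cord libraries held it at 6.60, 8.19, 8.65 and 9.33 FPKM and 9.26, 11.5, 10.4 and 12.5 FPKM, where the ranges of the gates overlapped slightly. Hspa13 rose by 0.61 ± 0.17 (adjusted p = 0.0195) in the thalamus and was not called in the spinal cord, at 0.37 ± 0.17 (adjusted p = 0.152). The thalamus adjusted p was 0.0629 and 0.063 without the positive library of mouse 1 or 3, 0.0837, 0.138 and 0.0589 without mouse 1, 3 or 4, and 0.0709 when only the groups compared were fitted.

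Hspa14, a ribosome-associated Hsp70, was at 2.85, 8.39, 2.72 and 0.821 FPKM in negative and 11.6, 8.22, 10.1 and 12.1 FPKM in positive thalamus libraries, and at 8.05, 8.74, 4.01 and 8.28 FPKM and 9.70, 8.23, 8.10 and 10.7 FPKM in the spinal cord. The positive library was higher in 3 of 4 mice in the thalamus, and the gates overlapped in both regions. Hspa14 rose by 1.53 ± 0.37 (adjusted p = 0.00858) in the thalamus, with adjusted p = 0.0569, 0.057 and 0.0831 without mouse 1, 3 or 4 and 0.0507 when only the groups compared were fitted. Its identifier carries the name Gm45902 in the GENCODE vM21 annotation, so the symbol is uncertain.

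Hspa1a, the classic stress-induced Hsp70, stood near the level rule. It was at 1.48, 1.34, 3.00 and 1.34 FPKM in negative and 0.0747, 0.0633, 0.311 and 0.0232 FPKM in positive thalamus libraries, and at 0.219 to 0.961 FPKM and 0.0435 to 0.316 FPKM in those of the spinal cord. The thalamus gates were apart and the difference there was -1.29 ± 0.21 (-3.19 with a pseudocount of 0.1), in a gene that met the level rule through its negative thalamus libraries alone. Hspa1a shares 66.3% of its 50-base words with other transcripts, foremost those of its near-identical copy Hspa1b, and overlaps Gm20481 on the opposite strand. The sum of both copies was 1.76 to 4.52 FPKM in negative and 0.0492 to 0.470 FPKM in positive thalamus libraries, and 0.540 to 3.11 FPKM and 0.117 to 0.374 FPKM in those of the spinal cord.

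**Figure D3:**
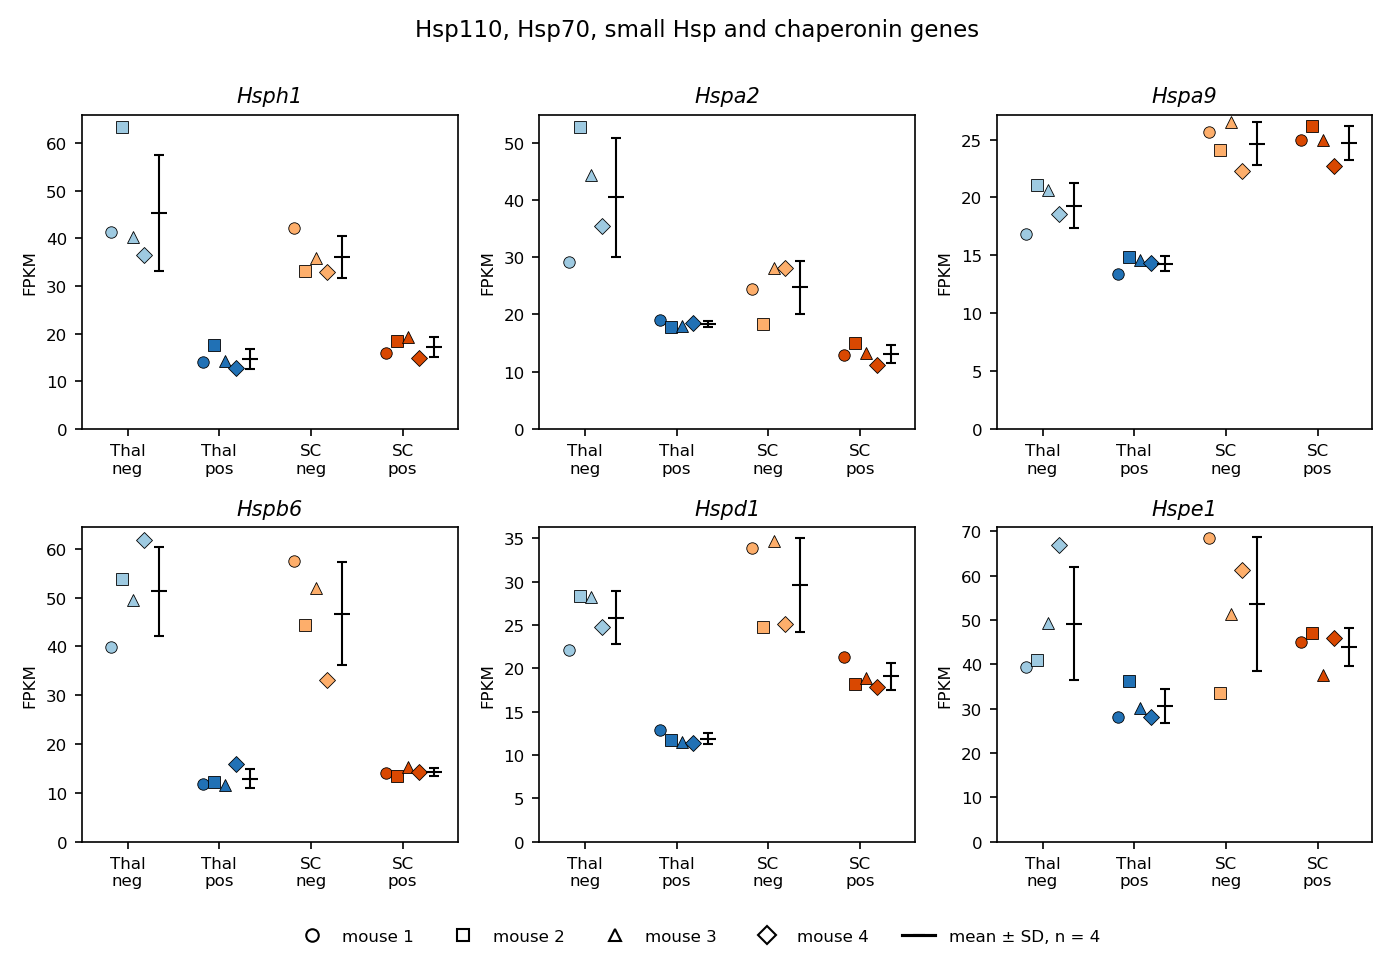
FPKM of Hsph1, Hspa2, Hspa9, Hspb6, Hspd1 and Hspe1 in each library, with the 4 groups on the x axis (Thal, thalamus, SC, spinal cord, neg and pos, reporter-negative and reporter-positive), mice as symbols and the group mean ± SD (n = 4). Hsph1, Hspa2, Hspb6 and Hspd1 are lower in all positive libraries of both regions, and Hspa9 is lower only in those of the thalamus.

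Of the small heat shock genes, Hspb6 was the most abundant. This gene, also known as Hsp20, was at 39.9, 53.9, 49.5 and 61.9 FPKM in negative and 11.9, 12.2, 11.6 and 15.8 FPKM in positive thalamus libraries. Its levels in spinal cord were 57.4, 44.5, 51.9 and 33.1 FPKM and 14.1, 13.4, 15.3 and 14.2 FPKM. The gates were far apart, and Hspb6 fell by 1.91 ± 0.18 (adjusted p = 3.93e-06) and by 1.62 ± 0.18 (adjusted p = 1.78e-05), in each of the 29 alternatives of either region. The authors' deposited table of positive against negative libraries, which lists 444 genes, gave Hspb6 a log2 fold change of -1.87 with an adjusted p of 1.43e-38.

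Hspb1, also known as Hsp25 in mice, was at 18.5, 2.495, 0.792 and 2.06 FPKM in negative thalamus libraries, and in positive ones it was listed at 0 in mice 1 and 4 and lay at 0.421 and 0.247 FPKM in mice 2 and 3. Among spinal cord libraries it was at 1.69, 2.11, 1.44 and 1.20 FPKM and 0.355, 0.637, 0.303 and 0.0966 FPKM. The gates did not overlap, and the negative thalamus library of mouse 1 was far above the rest. The difference of Hspb1 was -1.93 ± 0.51 in the thalamus, -1.21 without that library and -3.91 with a pseudocount of 0.1. In the spinal cord it was -0.96 ± 0.51. Hspb1 met the level rule through its negative libraries alone, and it shares 51.7% of its 50-base words with the pseudogene Hsp25-ps1.

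Hspb8, which acts with Bag3 in the clearance of misfolded proteins, was at 6.19, 6.70, 26.1 and 27.0 FPKM in negative and 9.19, 2.33, 3.92 and 6.01 FPKM in positive thalamus libraries. Its spinal cord levels were 12.0, 16.1, 27.7 and 31.5 FPKM and 10.9, 13.4, 8.58 and 8.28 FPKM. The gates overlapped, and Hspb8 was not called, at -1.29 ± 0.48 (adjusted p = 0.064) and -0.94 ± 0.48 (adjusted p = 0.194). The authors' deposited table lists Hspb8 at a log2 fold change of -1.26 with an adjusted p of 0.000364, along with Hspa2 at -1.09 (adjusted p = 2.46e-06) and Hspa4l at -1.45 (adjusted p = 4.21e-07). With Hspb6 these are the 4 genes of the 61 in that table, which lists 444 of the 39171 features. Its largest adjusted p was 0.00976, and it gives no separate fold change per region. Hsp90aa1, Hsp90ab1, Hsph1, Hspa4, Hspd1 and Dnaja1 are not in it. Hspb11, known as a ciliary transport protein rather than a chaperone, had group means of 12.98 to 17.1 FPKM and was not called.

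The genes of the mitochondrial chaperonin pair lie on either side of the stretch printed above for Hspe1. Hspd1 (Hsp60) was at 22.1, 28.4, 28.2 and 24.7 FPKM in negative and 12.8, 11.7, 11.5 and 11.4 FPKM in positive thalamus libraries, and at 33.9, 24.7, 34.7 and 25.1 FPKM and 21.3, 18.2, 18.8 and 17.9 FPKM in the spinal cord. The gates were apart in both regions, and Hspd1 fell by 1.06 ± 0.15 (adjusted p = 0.000127) and by 0.60 ± 0.15 (adjusted p = 0.00986). The spinal cord adjusted p was 0.107 without mouse 3 and 0.0505 without mouse 4.

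Hspe1 (Hsp10) was at 39.3, 41.1, 49.4 and 67.1 FPKM in negative and 28.2, 36.2, 30.1 and 28.1 FPKM in positive thalamus libraries, and at 68.6, 33.6, 51.3 and 61.3 FPKM and 45.1, 47.2, 37.5 and 45.9 FPKM in the spinal cord. The thalamus gates did not overlap, whereas the spinal cord gates did. Hspe1 fell by 0.64 ± 0.21 (adjusted p = 0.0408) in the thalamus, a call lost in 16 of 29 alternatives with adjusted p up to 0.257. Those were 5 other settings, the mouse as a block among them (0.0549), leaving out the negative library of mouse 3 or 4, the positive thalamus library of mouse 1, 3 or 4, the positive spinal cord library of mouse 1, 2 or 4, and mouse 1, 3 or 4. In the spinal cord Hspe1 was not called, at -0.24 ± 0.21 (adjusted p = 0.473). Of the 50-base words of both Hspd1 and Hspe1, 44.8% also occur in transcripts of other genes, so their levels are uncertain.

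The DnaJ genes were the largest class. Of 39, the thalamus comparison gave 7 falls and 2 rises (23.1% called), and the spinal cord gave 7 falls and 0 rises (17.9% called). The falls were 17.9% of the class in each region, against 13.6% and 10.5% of all features. Without Dnajb13, Dnajc6 and Dnajc14 they were 5 of 36 (13.9%) in each. In no comparison of the 5 were 28 DnaJ genes called. The 8 most abundant by mean FPKM were Dnajb11, Dnajc7, Dnajb9, Dnaja1, Dnajc1, Dnajc19, Dnajc24 and Dnajc3, and of these Dnajc1, Dnajc19, Dnajc24 and Dnajc3 had means of 26.7, 21.9, 21.3 and 20.5 FPKM over the 16 libraries and were never called. Dnajb1, the classic heat-inducible partner of Hsp70, had group means of 8.39 to 17.1 FPKM and was not called, at -0.38 ± 0.40 (adjusted p = 0.509) and -0.50 ± 0.40 (adjusted p = 0.416).

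Dnaja1, the other major cytosolic partner of Hsp70, was at 33.02, 42.3, 34.1 and 37.2 FPKM in negative and 19.8, 21.8, 18.4 and 19.5 FPKM in positive thalamus libraries. Spinal cord libraries held it at 35.2, 32.9, 41.9 and 42.1 FPKM and 22.4, 21.8, 23.4 and 23.7 FPKM. The gates were apart, and Dnaja1 fell by 0.85 ± 0.13 (adjusted p = 0.000253) and by 0.71 ± 0.13 (adjusted p = 0.00113), in each of the 29 alternatives of either region. Of its 50-base words 28.8% occur in other transcripts.

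Dnajc7, which binds both Hsp70 and Hsp90, was at 112, 74.9, 77.2 and 97.7 FPKM in negative and 47.4, 75.0, 53.9 and 51.1 FPKM in positive thalamus libraries, and at 89.5, 91.6, 106 and 77.9 FPKM and 64.8, 56.6, 61.4 and 61.9 FPKM in the spinal cord. The thalamus gates met in mouse 2, and the fall of 0.67 ± 0.17 (adjusted p = 0.0107) was seen in 3 of 4 mice. Its adjusted p there was 0.0875, 0.0521 and 0.105 without mouse 1, 3 or 4 and 0.0568 with only the groups compared. The spinal cord fall of 0.56 ± 0.17 (adjusted p = 0.0305) was lost in 13 of 29 alternatives, with adjusted p = 0.0505 to 0.182. Those were the fit with the mouse as a block (0.0547), the scaling over protein-coding genes, leaving out any mouse, any positive spinal cord library, or the negative one of mouse 1, 2 or 3.

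Other cytosolic DnaJ genes are tied to particular tasks. Dnajc8, associated with RNA splicing, was at 24.4, 27.8, 19.6 and 18.9 FPKM in negative and 6.91, 9.97, 10.9 and 8.17 FPKM in positive thalamus libraries. Its levels in spinal cord were 16.5, 18.8, 22.6 and 19.6 FPKM and 10.8, 8.52, 12.4 and 13.8 FPKM. The gates were apart, and Dnajc8 fell by 1.25 ± 0.19 (adjusted p = 0.000273) and by 0.73 ± 0.19 (adjusted p = 0.0133). Its adjusted p in the spinal cord was 0.0506 without the positive library of mouse 2 and 0.0732 and 0.0763 without mouse 2 or 3. Dnajc2, a ribosome-associated factor, had means of 14.4 and 6.52 FPKM in negative and positive thalamus libraries and of 12.4 and 6.35 FPKM in the spinal cord. It fell by 0.99 ± 0.24 (adjusted p = 0.00854; 0.0609 without mouse 4) and by 0.83 ± 0.24 (adjusted p = 0.026), and the spinal cord fall was lost without the negative library of mouse 1, 2 or 3, the positive library of mouse 1 or 3, or mouse 1, 2 or 3, with adjusted p = 0.0582 to 0.160. Dnajc5, the cysteine string protein of secretory vesicles, had means of 20.5 and 12.7 FPKM in the thalamus and of 17.0 and 17.2 FPKM in the spinal cord. It fell in the thalamus by 0.65 ± 0.16 (adjusted p = 0.00873), with 0.0595 without mouse 1 and 0.052 without mouse 2.

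Dnajc6, the auxilin that strips clathrin from coated vesicles and is known best from neurons, was at 7.96, 5.58, 8.93 and 5.01 FPKM in negative and 0.320, 0.298, 0.879 and 0.201 FPKM in positive thalamus libraries. Among spinal cord libraries it was at 2.28, 2.41, 4.19 and 2.21 FPKM and 0.497, 1.66, 0.222 and 0.237 FPKM. The gates did not overlap, and the differences were -2.46 ± 0.28 and -1.24 ± 0.28 (-3.85 and -2.25 with a pseudocount of 0.1), in a gene that met the level rule through its negative libraries. The 10 neuron markers summed to 47.7 to 95.4 FPKM in negative and 12.6 to 18.8 FPKM in positive thalamus libraries, and to 44.6 to 67.8 FPKM and 22.2 to 31.999 FPKM in the spinal cord. Of the 7 neuron markers tested 3 fell in thalamus and 1 in spinal cord, none of the 10 was at 0 in all libraries of a group, and their part in the difference of Dnajc6 was not tested.

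Dnajb13, a DnaJ protein of the radial spokes of motile cilia and sperm tails, was at 8.88, 2.54, 6.64 and 9.32 FPKM in negative thalamus libraries, while the positive ones were listed at 0 in mice 1 and 4 and lay at 0.419 and 0.111 FPKM in mice 2 and 3. Its spinal cord levels were 3.51, 9.29, 12.3 and 8.21 FPKM in negative libraries, and in positive ones at 0.176 and 0.0372 FPKM in mice 1 and 2 and listed at 0 in mice 3 and 4. The differences of Dnajb13 were -2.69 ± 0.35 and -3.05 ± 0.35 (-5.10 and -5.78 with a pseudocount of 0.1), in a gene that met the level rule through its negative libraries alone. All 12 ependymal markers fell with it in both regions, from the sums given above, with 0 markers at 0 in all libraries of a group, and their part in its fall was not tested. Its exons overlap those of Ucp2 on the opposite strand over 11.2% of their bases.

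**Figure D4:**
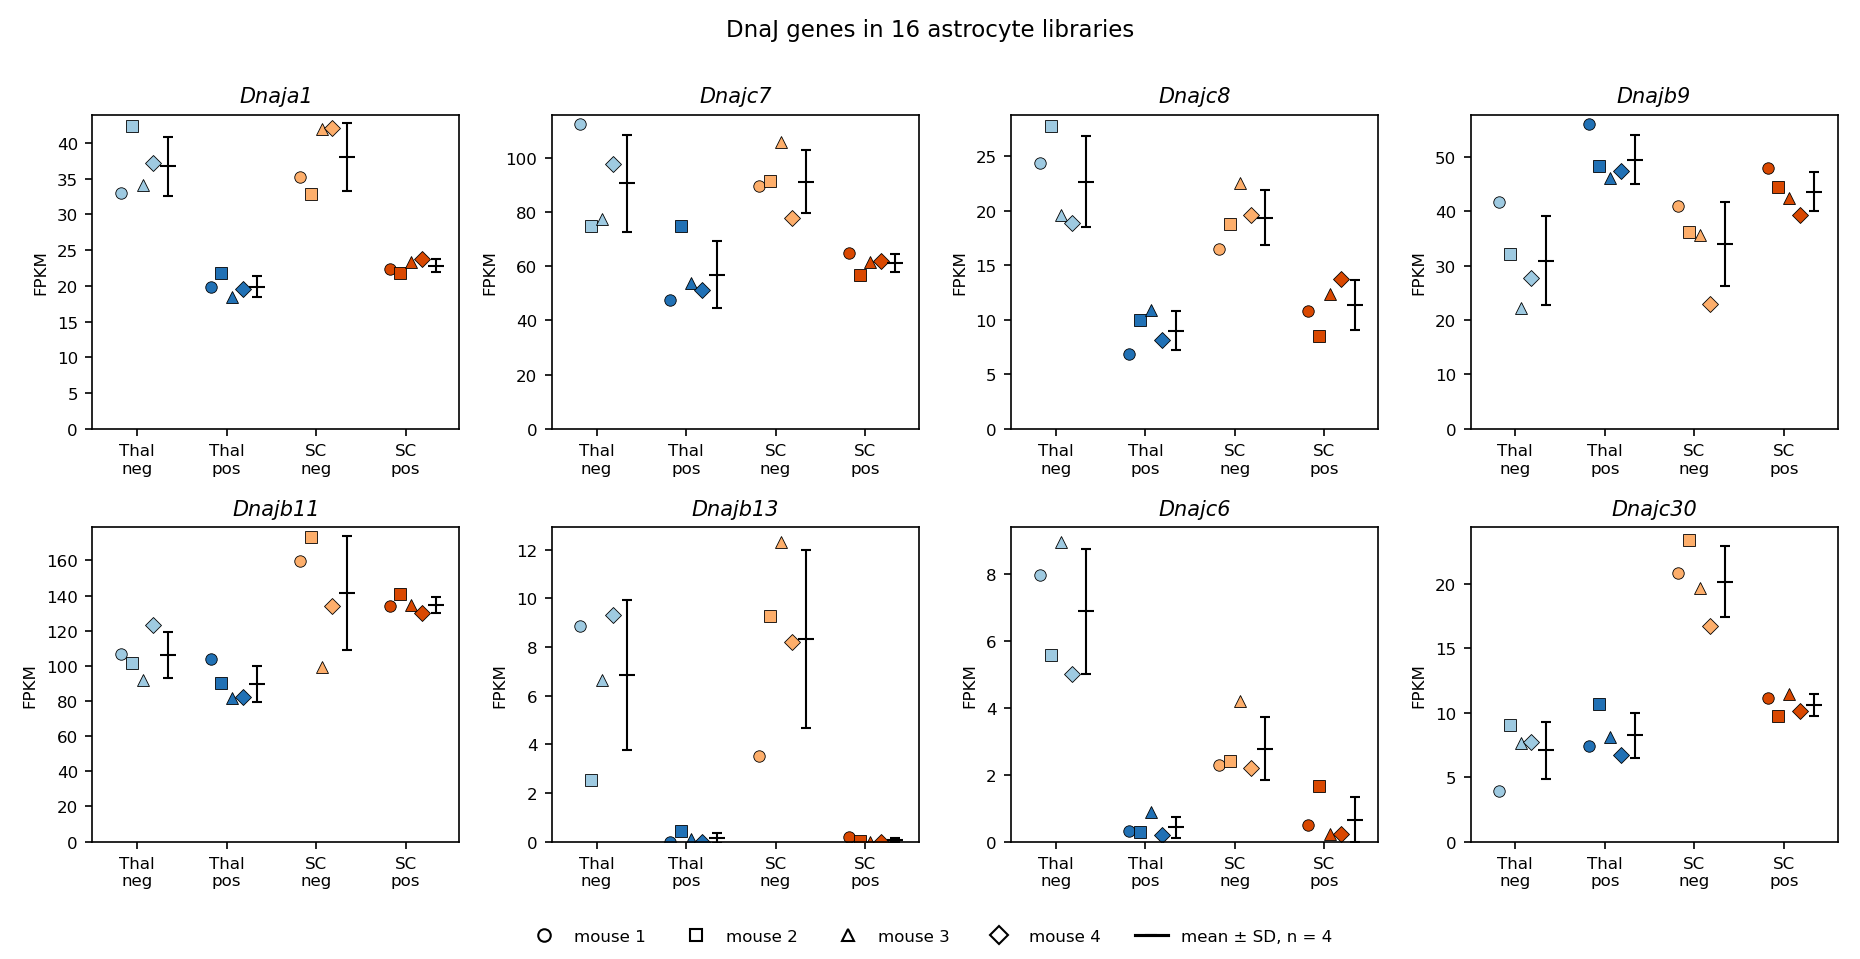
FPKM of 8 DnaJ genes in each library, with the 4 groups on the x axis (Thal, thalamus, SC, spinal cord, neg and pos, reporter-negative and reporter-positive), mice as symbols and the group mean ± SD (n = 4). Dnaja1 and Dnajc8 are lower in positive libraries of both regions, Dnajb13 and Dnajc6 come close to 0 there, Dnajb9 is higher in positive libraries of the thalamus, and Dnajc30 is high only in negative spinal cord libraries.

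Of the DnaJ genes linked to the ER, Dnajb9 and Dnajc16 rose in the thalamus. Dnajb9 (ERdj4), a target of the unfolded protein response, was at 41.6, 32.1, 22.2 and 27.7 FPKM in negative and 56.1, 48.3, 46.1 and 47.4 FPKM in positive thalamus libraries. Spinal cord libraries held it at 40.9, 36.3, 35.6 and 22.9 FPKM and 48.0, 44.5, 42.5 and 39.4 FPKM. The thalamus gates were apart and the spinal cord gates overlapped, although the positive library was higher in 4 of 4 mice in each. Dnajb9 rose by 0.69 ± 0.20 (adjusted p = 0.0191) in the thalamus, and the adjusted p was 0.056 and 0.056 without the negative library of mouse 3 or the positive one of mouse 1, and 0.0761, 0.132 and 0.0648 without mouse 2, 3 or 4. In the spinal cord it was not called, at 0.38 ± 0.20 (adjusted p = 0.197).

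Dnajc16, another DnaJ protein of the ER, was at 2.93, 3.35, 3.46 and 2.55 FPKM in negative and 6.23, 6.06, 4.57 and 4.57 FPKM in positive thalamus libraries. Its levels in spinal cord were 2.66, 3.40, 3.26 and 5.73 FPKM and 6.32, 5.48, 4.98 and 5.59 FPKM, where only the negative library of mouse 4 reached the positive range. It rose by 0.64 ± 0.19 (adjusted p = 0.0265) in the thalamus, a call lost in 8 of 29 alternatives. The adjusted p was 0.0629 without the negative library of mouse 4, 0.0783 and 0.0736 without the positive library of mouse 1 or 2, and 0.0623 to 0.1155 without any 1 mouse. In the spinal cord Dnajc16 was not called, at 0.50 ± 0.19 (adjusted p = 0.0835).

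Dnajb11 (ERdj3), which works with Hspa5, was at 107, 102, 92.0 and 123 FPKM in negative and 104, 90.5, 81.8 and 82.5 FPKM in positive thalamus libraries, and at 160, 173, 99.4 and 134 FPKM and 134, 141, 135 and 130 FPKM in the spinal cord. The gates overlapped in both regions, and neither difference was called, at -0.24 ± 0.16 (adjusted p = 0.308) and -0.04 ± 0.16 (adjusted p = 0.897).

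By compartment, a list of 8 chaperones of the ER held Hspa5, Hsp90b1, Dnajb9, Dnajb11, Dnajc1, Dnajc3, Dnajc10 and Hspa13, and did not include Dnajc16, described above. In the thalamus 2 of them rose (Dnajb9 and Hspa13) and 1 fell (Hsp90b1), and in the spinal cord 1 rose (Hspa5) and 0 fell, with median differences of 0.06 and 0.25. That is 37.5% and 12.5% called, against 25.2% and 19.6% of all features. Their summed level, most of it Hsp90b1, was 1097 to 1230 FPKM in negative and 891 to 972 FPKM in positive thalamus libraries, and 1067 to 1447 FPKM and 1195 to 1406 FPKM in those of the spinal cord. Another list held the cytosolic and chaperonin genes Hsp90aa1, Hsph1, Hspa1a, Hspa1b, Hspb1, Hspa4l, Dnaja1, Dnajb1, Dnajb4, Hspd1 and Hspe1. It also held the constitutive Hsp90ab1 and Hspa8, so it was not a list of heat-inducible genes alone. Of the 12 genes that passed the level rule (13 were listed), 8 fell in thalamus and 5 in spinal cord. From this list 0 rose, with medians of -0.94 and -0.63. The falls were 66.7% and 41.7%, against 13.6% and 10.5% of all features, and without Hspa1a and Hspb1 they were 6 and 5 of 10. This list, like the others, was chosen with earlier results of these data known, so its shares are a description only. The 13 summed to 696 to 962 FPKM in negative and 335 to 357 FPKM in positive thalamus libraries, and to 645 to 775 FPKM and 413 to 450 FPKM in the spinal cord, with no overlap of the gates. Of 8 mitochondrial chaperones, 3 fell in the thalamus (Hspd1, Hspe1, Hspa9) and 2 in the spinal cord (Hspd1, Dnajc30), and 0 rose. That is 37.5% and 25% lower, against 13.6% and 10.5% of all features. Hspd1 and Hspe1 were also on the list before this one, so their falls are counted in both.

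Immediate early genes, which respond quickly to stimulation, were lower in sum in the same positive libraries. The 18 on the list summed to 90.7 to 120 FPKM in negative and 36.96 to 49.6 FPKM in positive thalamus libraries, and to 85.3 to 196 FPKM and 53.9 to 73.1 FPKM in the spinal cord. Of the 13 tested, 5 fell in the thalamus, led by Egr1 and Fosb, and 6 in the spinal cord, led by Egr1 and Fos, and 0 rose. That is 38.5% and 46.2%, against 13.6% and 10.5% of all features called lower, and the other 8 and 7 were not called. Their part in the falls of chaperone genes was not tested.

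**Figure D5:**
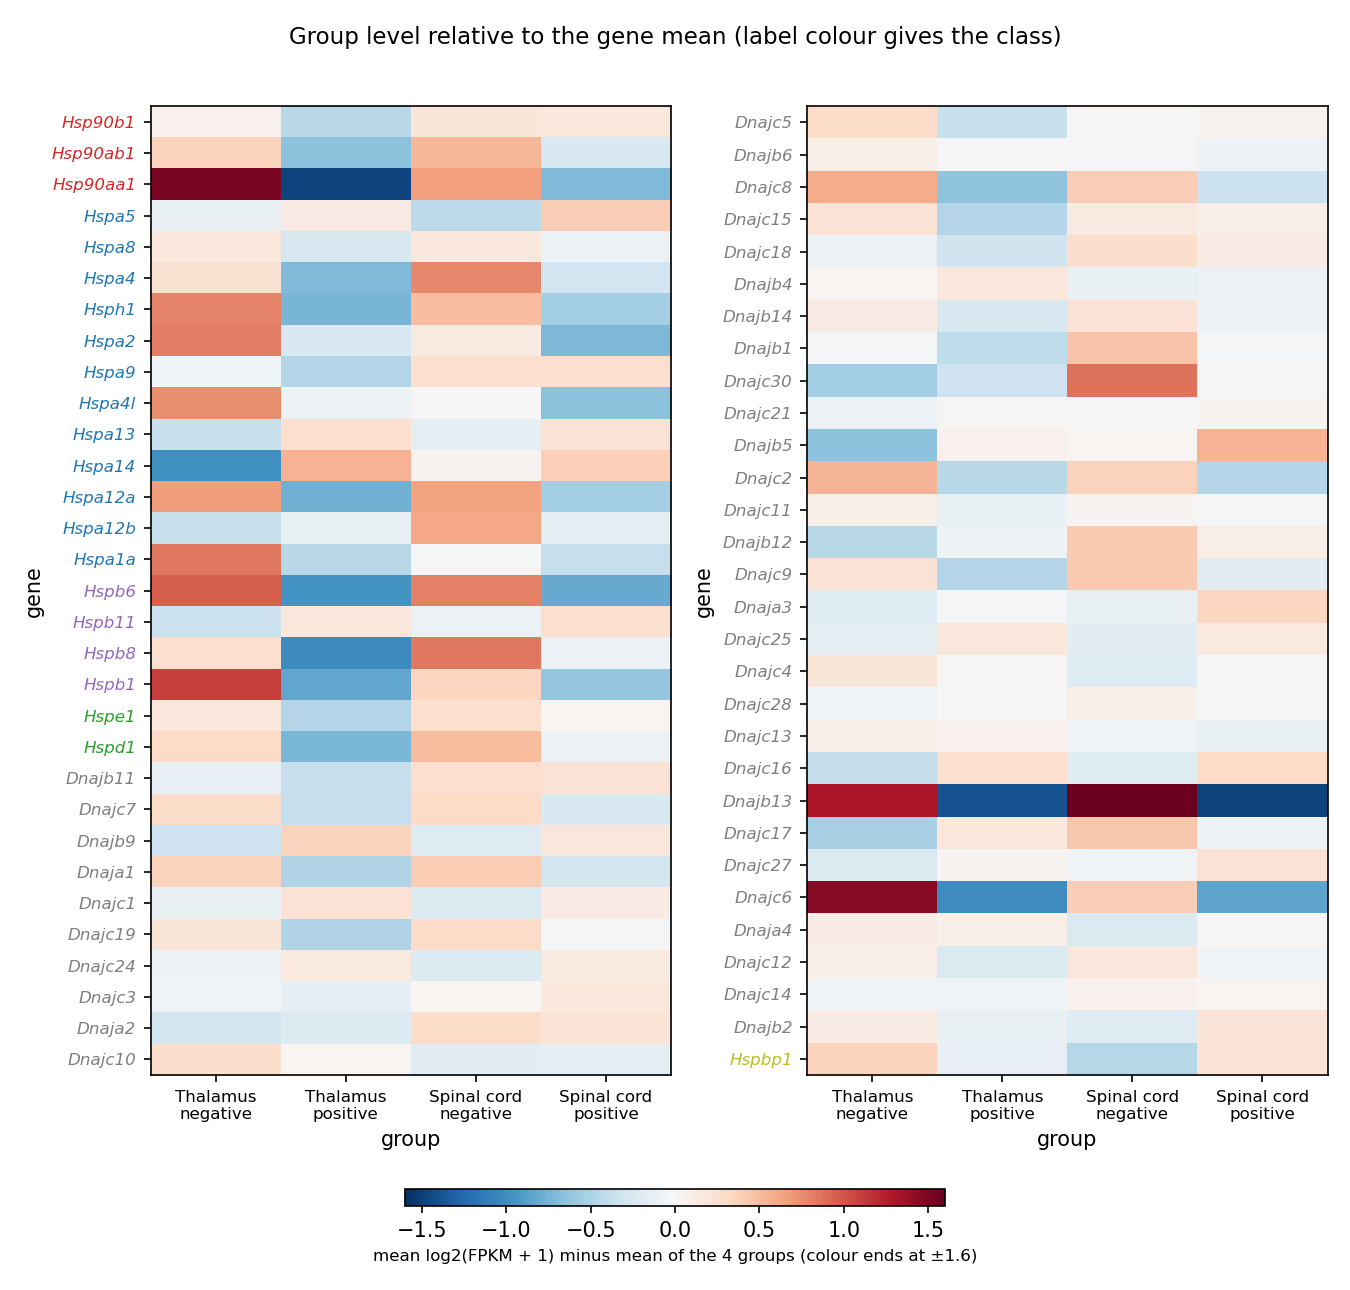
Mean log2(FPKM + 1) of each of the 61 genes in the 4 groups, relative to the mean of the 4 group means, with genes in rows (label colour gives the class, genes ordered by level within a class) and colour running from blue (lower) to red (higher) and ending at ±1.6. Hsp90aa1, Hsp90ab1, Hspa4, Hsph1 and Hspb6 are red in both negative groups and blue in both positive ones. Hspa13 and Dnajb9, which rose in the thalamus, run the other way, as does Hspb11, which was not called.

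Between the regions, negative libraries were compared first. Of the 61 genes 4 were lower and 1 was higher in the spinal cord, which is 8.2% against 9.81% of all features (4.54% lower and 5.27% higher). Between the same negative groups all 12 oligodendrocyte markers (12 of 12), 5 of 8 precursor and 5 of 10 endothelial markers were higher in the spinal cord, and 9 of 12 ependymal markers were lower. Their part in the differences that follow was not tested. Dnajc30, a mitochondrial DnaJ gene, was at 3.89, 9.02, 7.67 and 7.69 FPKM in negative thalamus libraries and at 20.8, 23.4, 19.7 and 16.8 FPKM in negative spinal cord libraries. In positive libraries it was at 7.43, 10.7, 8.15 and 6.69 FPKM in the thalamus and 11.2, 9.70, 11.5 and 10.1 FPKM in the spinal cord. The negative spinal cord group thus stood above the other 3 groups, which reached at most 11.5 FPKM. Dnajc30 was higher in the spinal cord by 1.43 ± 0.21 (adjusted p = 0.000477), in each of the 29 alternatives, and within the spinal cord it fell from negative to positive by 0.86 ± 0.21 (adjusted p = 0.0107; 0.0597 without mouse 2 and 0.0698 without mouse 3). Its exons overlap those of Bud23 on the opposite strand over 26.3% of their bases, so its level is uncertain.

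Hsp90aa1 was lower in the negative libraries of the spinal cord than in those of the thalamus, by 0.87 ± 0.19 (adjusted p = 0.00999), with no overlap. That call was lost on fitting only the groups compared (adjusted p = 0.0752) and without mouse 1, 3 or 4 (0.0598, 0.0586 and 0.0742). Dnajc6 and Hspa2 differed by -1.06 ± 0.28 (adjusted p = 0.024) and -0.67 ± 0.19 (adjusted p = 0.0323). The other gene counted as lower, Hspa1a, differed by -0.88 ± 0.21, but it met the level rule through the negative thalamus libraries alone, which favoured a lower level in the spinal cord. Dnajc6 lost its call in 11 alternatives and Hspa2 in 9, with adjusted p up to 0.153 and 0.248, and with the mouse as a block the adjusted p of Hspa2 was 0.0559. Without mouse 2 the difference of Hspa2 was -0.40. The libraries whose removal did so were the negative ones of mice 1 and 3 from the thalamus and 1, 2 and 4 from the spinal cord for Dnajc6 (also mouse 1 or 4), and those of mice 2 and 3 from the thalamus and 1 and 2 from the spinal cord for Hspa2 (also mouse 2, 3 or 4). The count was 1 when only the groups compared were fitted or mouse 4 was left out. It was 3 without mouse 3, the negative thalamus library of mouse 3, or the negative spinal cord library of mouse 1 or 2. Over all features 353 were called with only the groups compared and 976 without mouse 4, against 1603 in the main fit.

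Among positive libraries 5 genes were higher in the spinal cord and 0 lower, which is 8.2% against 6.1% of all features (4.22% higher and 1.88% lower). They were Hspa9 by 0.75 ± 0.12 (adjusted p = 0.00118), Hsp90aa1 by 0.75 ± 0.19 (adjusted p = 0.0325), Hspd1 by 0.64 ± 0.15 (adjusted p = 0.0153), Hsp90b1 by 0.64 ± 0.15 (adjusted p = 0.0176) and Dnajb11 by 0.59 ± 0.16 (adjusted p = 0.0475). In the libraries given above, positive spinal cord values of all 5 lay above the highest positive thalamus value. The same held for genes not called here, such as Dnajc5, Dnaja3 and Dnajb1. The share of all features with such a separation was not counted. Hspa9 was called in each of the 29 alternatives, whereas Dnajb11 lost its call in 18, Hsp90aa1 in 11, Hsp90b1 in 9 and Hspd1 in 6, with adjusted p up to 0.243, 0.210, 0.211 and 0.136. With the mouse as a block the adjusted p of Hsp90aa1 was 0.0674. Of 12 pan-astrocyte markers, 7 were higher and 1 was lower in the same comparison, and their part in these differences was not tested. For each of these 4, leaving out 1 positive library could end the call (thalamus mouse 1, 2, 3 or 4 for Dnajb11, 1, 2 or 4 for Hsp90aa1, 1, 3 or 4 for Hsp90b1 and 3 or 4 for Hspd1, and spinal cord mouse 1, 2, 3 or 4, then 1, 2 or 4, then 2, 3 or 4, then 1, in the same order of genes). When only the groups compared were fitted the count was 15, while 4227 of 16340 features were called, against 996 in the main fit. Leaving out any positive library gave 1 to 3 calls, and leaving out any mouse likewise gave 1 to 3. Over all features these fits called 611 to 758 and 368 to 838. The direction of Hsp90aa1 between the regions thus differed between the gates, lower in the spinal cord among negative and higher among positive libraries.

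The remaining chaperone machinery was counted from lists of its known parts. Hsbp1, which encodes a protein that binds heat shock factor, was at 218, 308, 212 and 268 FPKM in negative and 71.0, 79.2, 69.3 and 67.4 FPKM in positive thalamus libraries, and at 365, 299, 308 and 240 FPKM and 113, 119, 114 and 93.4 FPKM in the spinal cord. The gates were far apart, and Hsbp1 fell by 1.78 ± 0.16 (adjusted p = 2.26e-06) and by 1.44 ± 0.16 (adjusted p = 1.52e-05). Hsf1, the main heat shock factor, was at 7.38 to 13.6 FPKM in negative and 10.0 to 12.8 FPKM in positive thalamus libraries, and at 4.60 to 30.04 FPKM and 10.9 to 15.3 FPKM in the spinal cord. It was not called, at 0.04 ± 0.39 (adjusted p = 0.959) and -0.21 ± 0.39 (adjusted p = 0.749).

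Of 17 Hsp90 cochaperones 4 fell in the thalamus (Ptges3, Ahsa1, Fkbp4 and Stip1, by 1.26, 1.19, 0.91 and 0.86) and 2 in the spinal cord (Ahsa1 and Cacybp, by 0.76 and 0.65), and 0 rose. Their falls, 23.5% and 11.8%, compare with 13.6% and 10.5% of all features called lower. Of 10 nucleotide exchange factors tested, Bag1 fell in both regions, by 1.51 and 0.98, and Sil1, the exchange factor of Hspa5 in the ER, rose in the spinal cord by 0.84. Of 14 subunits of the cytosolic chaperonin and prefoldin, Cct6a and Cct2 fell in the thalamus and Cct2 and Tcp1 in the spinal cord. Of 22 genes of ER folding and the unfolded protein response, 1 fell in the thalamus (Creld2, by 0.87) and 1 rose in the spinal cord (Sil1). Of 13 genes of mitochondrial protein quality control, Yme1l1 rose in the thalamus by 1.06 and Afg3l2 in the spinal cord by 0.78. The shares called either way (thalamus, then spinal cord) were 10% and 20% for exchange factors and 14.3% and 14.3% for chaperonin and prefoldin. They were 4.55% and 4.55% for ER folding and 7.69% and 7.69% for mitochondrial quality control. Of all features, 25.2% and 19.6% were called. For chaperonin and prefoldin all calls were falls, and 13.6% and 10.5% of all features were called lower. Cryab, the crystallin small heat shock gene, was at 10.9 to 47.5 FPKM in negative and 9.87 to 15.2 FPKM in positive thalamus libraries, and at 54.5 to 69.9 FPKM and 23.8 to 33.1 FPKM in the spinal cord. Its gates overlapped in the thalamus and were apart in the spinal cord, and it fell by 1.02 ± 0.33 (adjusted p = 0.0365) and 1.12 ± 0.33 (adjusted p = 0.028).

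Of the 61 genes, 27 were called in at least 1 of the 5 comparisons and 34 in none. Hspbp1, a further exchange factor of Hsp70, was among the latter, with group means of 0.540 to 1.87 FPKM and 1 negative spinal cord library listed at 0. The differences of genes not called ran from -1.29 to 0.71 in the thalamus and from -0.96 to 0.68 in the spinal cord, so a gene may miss the threshold with a difference as large as that of many called ones.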

How the data were processed

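Per the labels' protocols, a Qiagen kit gave the RNA of the sorted cells and a NuGEN kit the libraries. Per the submitters' processing notes alignment and counting tools included Bowtie2 2.2.3, TopHat2 2.0.11 and HTSeq 0.6.1p1, besides Cufflinks, Cuffnorm, DESeq2 and FastQC, on GRCm38. The authors deposited FPKM values for 39171 features in 16 libraries. A second table that the authors deposited holds their comparison of positive and negative libraries, as log2 fold changes with standard errors, a test score and p-values, beside group means in FPKM. It also gives a mean normalized signal over libraries, made by the authors and not used here. Strandedness and library depth are not given in the sources used here.

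Values were fitted as log2(FPKM + 1) with limma 3.58.1 in R 4.3.3, taking the 4 groups as the only terms and letting the prior variance follow the mean. Tests in 5 comparisons covered the 16340 features that reached 1 FPKM in 4 or more of the 16 libraries, with Benjamini-Hochberg adjustment over all of them. The fit was tested on simulated data. The genes and lists were chosen with earlier results of these data known. Hsp90, Hsp70, chaperonin and small heat shock genes were all named, as were the 8 most abundant DnaJ genes and the called ones with the largest changes.

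No libraries held identical values (0 pairs). Per the labels, a mouse number marks 1 animal. Same-mouse deviations from the group means correlated at 0.0358 on average (24 pairs, -0.0135 to 0.0919), and others at -0.0119 (72 pairs). The fit with the mouse as a block called 25 thalamus and 15 spinal cord differences, against 24 and 16 without it. Shared words were 50 bases long, counted in GENCODE vM21 transcripts. Alternatives (29 per comparison, 28 for the difference between regions) changed the pseudocount, filter, scaling, trend, block or the groups fitted, or left out a library or a mouse. Promoter windows are from RefSeq.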

Additional observations from a re-analysis of the deposited data

Results flagged for a closer look

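In 7 of 108 groups of 4 libraries checked, the highest or lowest library lay far from the other 3 of its group. Chance alone gives about 1 in 20 such groups. In negative thalamus libraries, Hsp90ab1 was low in mouse 1 (116 FPKM), Hspb1 was high in mouse 1 (18.5 FPKM) and Hspa1a was high in mouse 3 (3.00 FPKM). In positive thalamus libraries, Hspa4 was high in mouse 2 (38.5 FPKM) and Hspb6 was high in mouse 4 (15.8 FPKM). In negative spinal cord libraries, mouse 3 was low for Hspa14 (4.01 FPKM) and high for Dnajc6 (4.19 FPKM).

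The positive minus negative difference of Hsp90aa1 differed between the regions, being 1.62 higher in the spinal cord on the log2(FPKM + 1) scale (limma, adjusted p = 0.00507).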

How the results depend on the processing

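No called gene changed sign in any alternative. In the thalamus the count of 24 called genes was 17 to 25 over the other settings and 14 to 27 on leaving out a library or a mouse. In the spinal cord the count of 16 was 15 to 17 and 9 to 17. Counts over all features moved too, for example from 4119 to 2279 in the thalamus without mouse 4. The count of 5 between the regions in negative libraries was 3 with a pseudocount of 0.1, 3 with the filter at 5 FPKM, 1 with only the groups compared, and 1 to 7 on leaving out a library or mouse. The count of 5 in positive libraries was 3 with scaling over protein-coding genes, 15 with only the groups compared, and 1 to 6 on leaving out. Where it was 15, calls over all features had also grown, from 996 to 4227. The difference between the regions called 1 gene, 2 with scaling over protein-coding genes, and 0 to 3 on leaving out, with 0 without mouse 4. With the replicate block the 5 counts were 25, 15, 4, 4 and 1. The 4 rises in the thalamus were 1 with only the groups compared, 1 without mouse 1 and 0 without mouse 3 or 4. A call was lost 168 times over all genes and alternatives, and the causes were not tested. Depth is unknown, so low genes carry no counting interval.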
